A study of Mus musculus with 8 samples.

Results

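The lysosome genes described here are 36 genes of the degradative compartment of the cell. The list was set by name, with earlier results of these data known, and all 36 were found among the 23427 genes of the table. They were followed in primary mouse oligodendrocyte precursor cells (OPCs), the progenitors that mature into myelin-forming oligodendrocytes (OLs), over the first days of differentiation, sampled as Day 0, Day 1, Day 2 and Day 3. The cells came from wild-type C57BL/6J pups at postnatal day 7 and were isolated from cortex by immunopanning with an antibody against PDGFRα, after a lectin-coated dish had taken out other cells such as microglia and endothelial cells. By the methods of the study, Day 0 cells had been kept in growth medium with PDGF-AA and CNTF. The later days followed withdrawal of PDGF-AA and addition of the thyroid hormone T3. The labels name another medium, DMEM with serum, and which holds for these libraries is not known. All 4 groups share genotype, strain and age, so that day in culture is the only labelled difference, and each day has 2 libraries, described as independent experiments. No library here comes from cells kept in growth medium for the same time, so that time in culture and differentiation cannot be told apart.

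The lysosome is an acidic organelle in which proteins, sugar chains and lipids are broken down. Glycosylated membrane proteins line its inner face and a proton pump, the V-ATPase, keeps it acidic. Soluble enzymes are tagged and sorted to it from the Golgi apparatus, and their loss causes the lysosomal storage diseases, several of which damage white matter. In OLs, late endosomes and lysosomes also hold a store of the myelin protein PLP. The 36 genes were divided by function into 7 membrane proteins, 7 proteases, 14 enzymes of sugar chain breakdown, 6 lipid hydrolases and lipid carriers, and 2 regulators.

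Expression is given in FPKM, which counts sequenced fragments by kilobase of transcript and scales them to the number of mapped fragments, and can therefore be compared between genes. Low FPKM values step in units of a single fragment, and these steps placed the depth at 960000 to 1540000 fragments per library, with Day 3 the shallowest day. At this depth 1 fragment of a 2 kb transcript was worth 0.325 to 0.521 FPKM, so the 6 lysosome genes that stayed below 10 FPKM in every library rest on few fragments. The markers moved with the labels, and the summed FPKM of 4 OPC genes went from 849 to 74.1 and that of 6 OL genes from 931 to 22900 between Day 0 and Day 3. Of 11 genes that mark microglia and macrophages, which are rich in lysosomes, 9 were at 0 in every library and the list summed to at most 2.51 FPKM. Endothelial markers were at 0 for 3 of 5 genes and summed to at most 0.428 FPKM, those of neurons summed to between 1.58 and 10.6 FPKM, and those of mural cells, which include the OPC gene *Cspg4*, went from 59.3 to 1.75 FPKM. Astrocyte markers were present and differed between the replicates, with sums of 120 to 167 FPKM in replicate 1 and 354 to 952 FPKM in replicate 2. None of the 7 was called between Day 0 and Day 3, but with the replicate number as a block *Gfap* and *Aqp4* were called higher (adjusted p = 0.000127 and 0.000735).

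Between Day 0 and Day 3 the lysosome genes were mostly higher. Of the 36, 20 rose, 1 (*Glb1*) fell and 15 did not pass the threshold, which was an adjusted p under 0.05 (limma, 12208 genes above a low-value filter, log2(FPKM + 1) scale). Among all genes tested, 12% were called higher and 26.3% lower in the same comparison. Because the list was chosen with earlier results of these data known, the contrast with these shares is a description and not a test. The median log2 fold change of the 36 was 0.95, while that of all genes tested was -0.31, and relative to the latter the lysosome median was 1.26. With median ratio scaling, in which each library is divided by its median ratio to a mean library, and which moved the median of all genes to -0.04 and their calls to 17.5% higher and 16.7% lower, 24 lysosome genes were called higher, the further 4 being *Cln3*, *Ids*, *Asah1* and *Ppt1*, and 0 lower. With the replicate number as a block, 21 were called higher and 1 lower, where 13.2% of all genes were higher and 29.1% lower. In a bulk culture, more cells of a type and more RNA per cell cannot be told apart.

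The 36 genes summed to 1372 ± 6.28 FPKM (Day 0), 1538 ± 153 (Day 1), 2163 ± 3.07 (Day 2) and 3177 ± 21.2 (Day 3, SD and n = 2 throughout), so that the last sum was 2.32-fold the first. The sum went from 1377 to 3162 FPKM in replicate 1, where the astrocyte markers summed to 120 FPKM on Day 0 and 148 on Day 3. In replicate 2 it went from 1368 to 3192 FPKM, and the astrocyte markers summed to 354 and 952 FPKM. What astrocytes contributed to these sums was not tested. The mean level was highest on Day 3 for 25 of the 36 genes and lowest on Day 0 for 23, and 15 genes had a higher mean on each day than on the day before. The levels of the genes spanned 123-fold, from a mean of 369 FPKM over the 8 libraries for *Lamp1* to 2.999 FPKM for *Gla*.

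**Figure D1:**
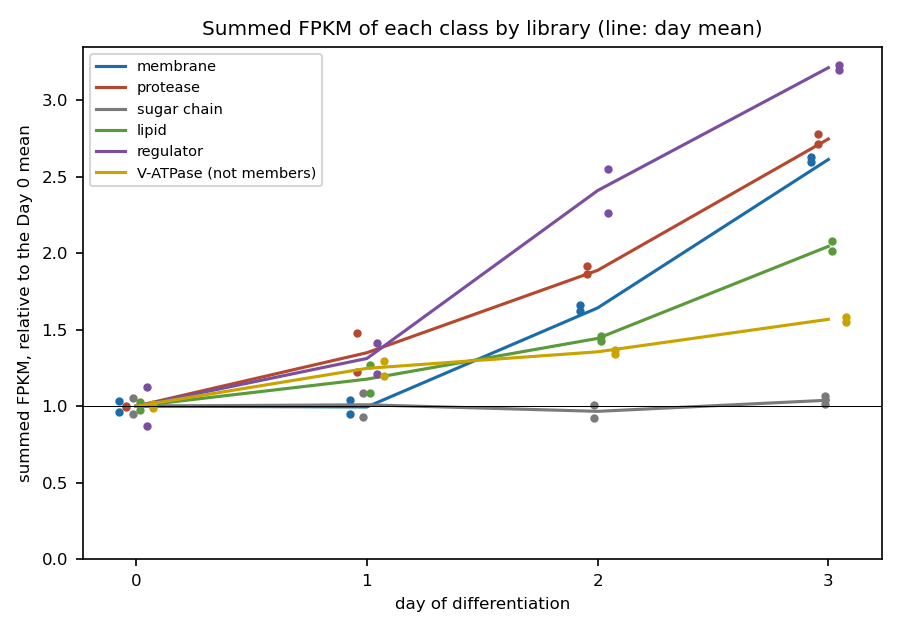
Summed FPKM of each class of lysosome genes, and of the V-ATPase genes, divided by the mean of the class on Day 0 (y axis, starting at 0) against the day (x axis); points are libraries and lines join the means of the 2 libraries. On Day 3 the regulators stood at 3.21, the proteases at 2.75, the membrane proteins at 2.61, the lipid genes at 2.05 and the V-ATPase genes at 1.57 times their Day 0 mean, while the enzymes of sugar chain breakdown stood at 1.04. A sum follows the most abundant genes of its class. *Psap* made up 208 of the 343 FPKM of the lipid genes on Day 0 and 481 of 702 on Day 3.

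The classes differed in how many members were called, where 12% of all genes tested were called higher and 26.3% lower. Among the membrane proteins 6 of 7 rose and among the proteases 6 of 7, with median log2 fold changes of 1.11 and 1.36. Both regulators rose. Of the 6 lipid genes 2 rose, and the class had a median of 0.53. Among the 14 enzymes of sugar chain breakdown 4 rose and 1 fell, and the median was 0.08, or 0.39 relative to all genes. With median ratio scaling, 17.5% of all genes were called higher and 16.7% lower. There, 7 membrane proteins, 6 proteases, 4 lipid genes, 5 enzymes of sugar chain breakdown and both regulators rose, and 0 members fell. With the replicate block 3 lipid genes rose, and the counts of the other classes did not change. The differences between classes were not tested.

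**Figure D2:**
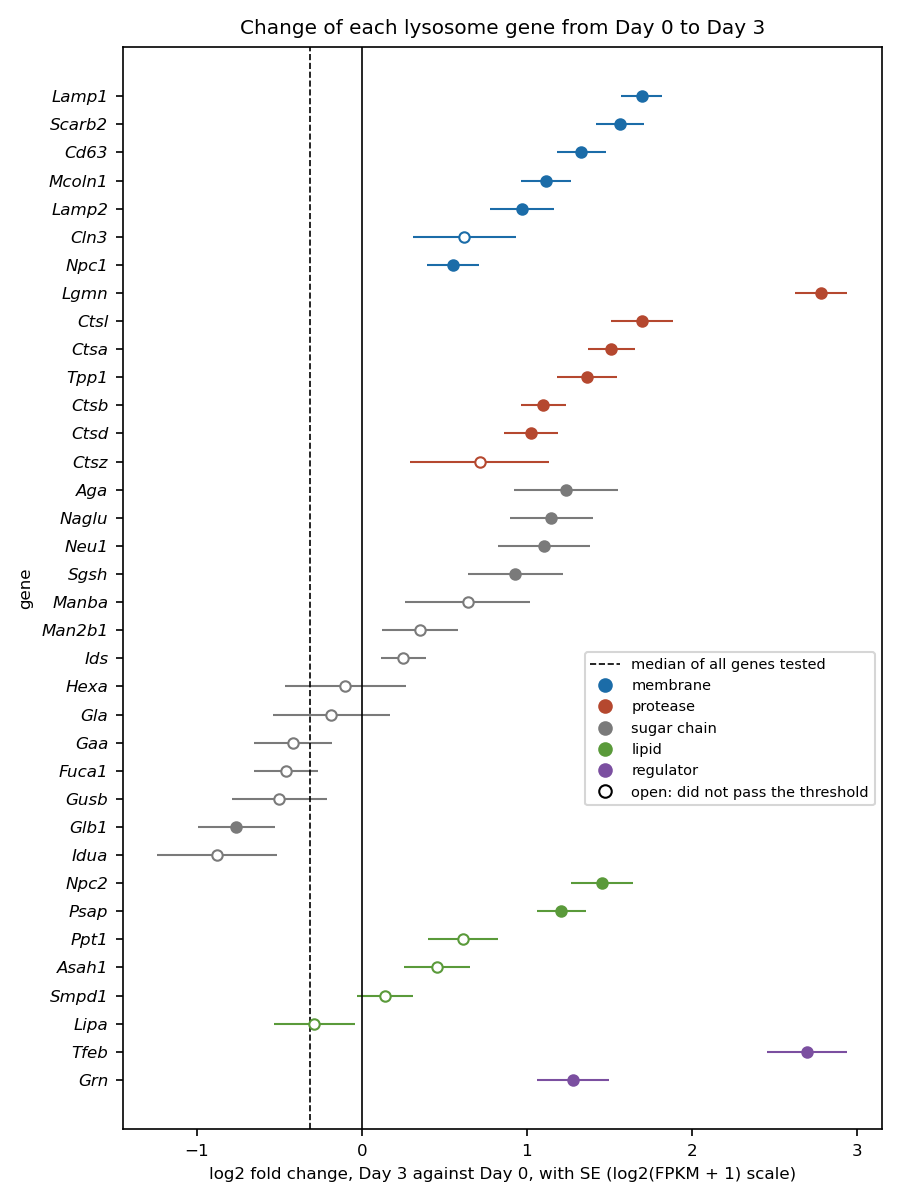
Log2 fold change between Day 0 and Day 3 of each of the 36 lysosome genes (x axis, on the log2(FPKM + 1) scale, with the SE from limma), grouped and coloured by class on the y axis; filled points passed an adjusted p of 0.05 and the dashed line is the median of all genes tested, -0.31. The values run from -0.87 for *Idua* to 2.78 for *Lgmn*, and the points left of 0 are 7 enzymes of sugar chain breakdown and *Lipa*.

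Of the regulators, *Tfeb* (chr17:47737030-47792419, plus strand, GRCm38) encodes the transcription factor that activates many lysosomal genes when nutrients are short, and it had the second largest log2 fold change of the 36. It was at 6.43 and 3.94 FPKM (Day 0), 14.5 and 19.5 (Day 1), 39.1 and 43.2 (Day 2), and 42.1 and 34.9 (Day 3) with replicate 1 named first. The Day 0, Day 1 and later libraries did not overlap, whereas those of Day 2 and Day 3 did. *Tfeb* rose by 2.70 ± 0.24 (SE, adjusted p = 0.000151) on the log2 scale between Day 0 and Day 3, where mean FPKM was 7.42-fold that of Day 0. By step it rose by 1.56 ± 0.24 (SE, adjusted p = 0.00457) to Day 1 and by 1.24 ± 0.24 (SE, adjusted p = 0.0345) to Day 2, and the value for the last step was -0.10 ± 0.24 (SE, adjusted p = 0.903). *Grn* (chr11:102430315-102437048, plus strand) encodes progranulin, a secreted precursor that is cut into granulins in the lysosome. Its libraries were at 32.1 and 25.8 FPKM (Day 0), 33.9 and 21.8 (Day 1), 38.4 and 44.1 (Day 2), and 68.4 and 74.3 (Day 3), so that Day 0 and Day 1 overlapped and Day 3 lay above all other days. It rose by 1.28 ± 0.22 (SE, adjusted p = 0.00260) between Day 0 and Day 3, with no single step past the threshold.

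TFEB and its relatives bind an E-box, CACGTG, and prefer longer forms such as TCACGTG and TCACGTGA, which occur near the starts of many lysosomal genes. These letters were searched on both strands of the RefSeq promoter windows (GRCm38.p6, 250 bases before to 50 after each gene's start), which were matched for 32 of the 36 genes and not for *Ctsb*, *Npc1*, *Aga* and *Asah1*. The motifs nest, since each longer form contains the shorter. CACGTG was present for 12 of the 32 (37.5%), against 8.09% of 27025 genes with a window and 12.03% of the 8963 of these that were tested. TCACGTG was present for 11 (34.38%, against 4.29% of all and 7.26% of tested genes) and TCACGTGA for 5 (15.62%, against 1.12% and 2.37%). By class, TCACGTG was found for 3 of 6 membrane proteins, 3 of 6 proteases, 5 of 13 enzymes of sugar chain breakdown, 0 of 5 lipid genes and 0 of 2 regulators. Of the 17 matched genes that rose, 7 had it (41.18%), and of the 15 that did not, 4 (26.67%). Of 69 further lysosomal genes with a window, 18 had it (26.09%). *Tfeb* itself had none of the forms in its 3 windows. Since these forms are already known near the starts of many lysosomal genes, a high share in such a list was foreseeable and is not a separate result. A match describes the letters only, and binding was not measured here.

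The elements of 7 genes are shown, each with 11 bases on either side, on the strand of the gene and with the element in capitals. The genes that carry one were not all called alike. *Lgmn*, *Lamp1*, *Ctsa*, *Mcoln1* and *Ctsd* rose, *Glb1* fell and *Gaa* was not called. The call of *Glb1* held under 10 of 17 alternative settings and was lost with median ratio scaling (-0.47, adjusted p = 0.137 by limma).
Lgmn: tggaatgtctgTCACGTGgtccattttat
Lamp1: acgtgaccacaTCACGTGcggaacggagc
Ctsa: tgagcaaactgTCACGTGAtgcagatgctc
Mcoln1: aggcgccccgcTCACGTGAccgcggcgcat
Ctsd: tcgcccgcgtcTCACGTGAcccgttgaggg
Glb1: ctgcttctgagTCACGTGgcctacagagg
Gaa: tttctgtgcgaTCACGTGtttgactctga
The windows lie at chr12:102439125-102439153 (minus strand) for *Lgmn*, chr8:13159134-13159162 (plus strand) for *Lamp1*, chr2:164833749-164833778 (plus strand) for *Ctsa*, chr8:3500462-3500491 (plus strand) for *Mcoln1*, chr7:142387908-142387937 (minus strand) for *Ctsd*, chr9:114401018-114401046 (plus strand) for *Glb1* and chr11:119267811-119267839 (plus strand) for *Gaa*. The last base of the element is 44, 10, 6, 39, 92, 43 and 135 bases before the RefSeq start, in the same order. In the GENCODE annotation, whose transcripts can start further upstream, the elements of *Ctsa*, *Mcoln1* and *Ctsd* fall in an untranslated exon of the gene itself and that of *Lgmn* within the gene but in no exon. Those of *Lamp1*, *Glb1* and *Gaa* fall between genes. The window of *Lamp1* held 4 such elements, those of *Mcoln1* and *Ctsd* 2 each, and the other four 1 each.

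**Figure D3:**
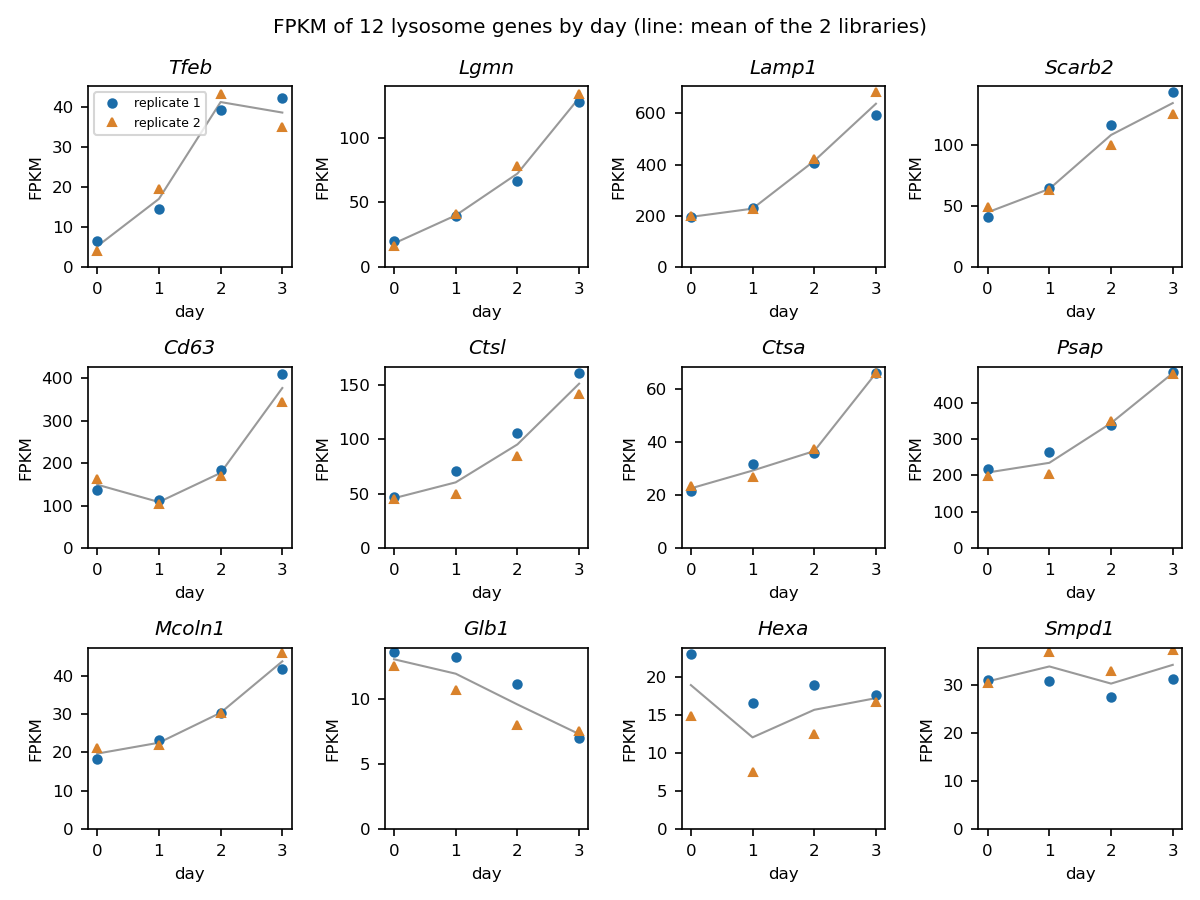
FPKM of 12 lysosome genes (y axis, starting at 0, own scale in each panel) against the day (x axis); circles are replicate 1, triangles replicate 2, and the line joins the means. *Tfeb* levels off after Day 2 at 34.9 to 43.2 FPKM, *Cd63* is lowest on Day 1 and highest on Day 3, *Glb1* ends at 7.01 and 7.54 FPKM, and the replicates of *Hexa* lie as far apart as its days.

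The membrane proteins were led by *Lamp1* (chr8:13159161-13175338, plus strand), which encodes a heavily glycosylated protein of the lysosomal membrane and was the most abundant of the 36. Its libraries were at 194 and 198 FPKM (Day 0), 231 and 225 (Day 1), 407 and 421 (Day 2), and 593 and 682 (Day 3). No 2 days overlapped. *Lamp1* rose by 1.69 ± 0.12 (SE, adjusted p = 8.42e-05) between the first and the last day, with a called rise of 0.86 ± 0.12 (SE, adjusted p = 0.0141) from Day 1 to Day 2. *Lamp1* made up 14.3% of the summed FPKM of the 36 genes on Day 0 and 20.1% on Day 3. Its partner *Lamp2* (chrX:38401357-38456454, minus strand), whose isoforms also serve in autophagy, was at 67.8 and 70.5 FPKM (Day 0), 73.7 and 50.2 (Day 1), 93.1 and 86.0 (Day 2), and 151 and 123 (Day 3). Day 1 replicate 2 was the lowest library and both Day 3 libraries were the highest. *Lamp2* rose by 0.97 ± 0.19 (SE, adjusted p = 0.00524).

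*Scarb2* (chr5:92441314-92506833, minus strand) encodes LIMP-2, a sorting receptor of the lysosomal membrane. *Scarb2* was at 40.8 and 49.1 FPKM (Day 0), 64.9 and 63.4 (Day 1), 116 and 100.4 (Day 2), and 143 and 126 (Day 3). The days were separate, and it rose by 1.56 ± 0.15 (SE, adjusted p = 0.000184) overall and by 0.74 ± 0.15 (SE, adjusted p = 0.0354) from Day 1 to Day 2. *Cd63* (chr10:128900989-128912822, plus strand), a tetraspanin of late endosomes and of exosomes, had another course. It was at 136 and 162 FPKM (Day 0), 113 and 104 (Day 1), 184 and 170.4 (Day 2), and 411 and 343 (Day 3). Both Day 1 libraries were below both Day 0 libraries, although the step did not pass the threshold (-0.45 ± 0.15 SE, adjusted p = 0.0851). *Cd63* then rose by 0.70 ± 0.15 (SE, adjusted p = 0.0408) to Day 2 and by 1.08 ± 0.15 (SE, adjusted p = 0.0369) to Day 3, and it was the only one of the 36 called in the last step. Overall it rose by 1.33 ± 0.15 (SE, adjusted p = 0.000352).

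*Mcoln1* (chr8:3500457-3515232, plus strand) encodes the calcium channel TRPML1, through which lysosomes release calcium. The libraries were at 18.2 and 21.2 FPKM (Day 0), 23.2 and 21.9 (Day 1), 30.3 and 30.4 (Day 2), and 41.7 and 45.9 (Day 3). Day 0 and Day 1 lay close together, and Day 3 was above all other days. It rose by 1.11 ± 0.15 (SE, adjusted p = 0.000862). *Npc1*, the membrane-bound partner in cholesterol export from the lysosome, ranged from 45.8 to 94.4 FPKM and rose by 0.55 ± 0.16 (SE, adjusted p = 0.0257). This call was lost without the trend in limma's variance estimate (adjusted p = 0.0690) and without either Day 0 library or either Day 3 library, where the adjusted p reached 0.140. *Cln3*, the gene of juvenile Batten disease, ranged from 6.52 to 18.0 FPKM, with its highest value in Day 2 replicate 1, and was not called (0.62 ± 0.31 SE, adjusted p = 0.151).

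Among the proteases, *Lgmn* (chr12:102394084-102439813, minus strand), which encodes the asparagine-specific endopeptidase legumain that also activates cathepsins, changed most. It was at 20.5 and 16.1 FPKM (Day 0), 39.2 and 40.9 (Day 1), 66.6 and 78.1 (Day 2), and 128 and 134 (Day 3). Every day lay above the one before in both replicates. *Lgmn* rose by 2.78 ± 0.16 (SE, adjusted p = 4.78e-05) between Day 0 and Day 3, where its mean was 7.16-fold that on Day 0, and was 173rd of the 12208 genes by log2 fold change. *Tfeb* was 183rd. By step, *Lgmn* rose by 1.10 ± 0.16 (SE, adjusted p = 0.00312) to Day 1 and by 0.83 ± 0.16 (SE, adjusted p = 0.0314) to Day 2, and the last step was at 0.85 ± 0.16 (SE, adjusted p = 0.0739).

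The cysteine proteases *Ctsl* and *Ctsb* and the aspartic protease *Ctsd* degrade proteins inside the lysosome. *Ctsl* (chr13:64359337-64370890, minus strand) was at 47.0 and 44.7 FPKM (Day 0), 70.7 and 49.99 (Day 1), 106 and 84.6 (Day 2), and 160.5 and 141 (Day 3). Replicate 2 was below replicate 1 on each day, while Day 3 was above every earlier library. It rose by 1.70 ± 0.19 (SE, adjusted p = 0.000362), and from Day 1 to Day 2 it passed the threshold with the replicate block (adjusted p = 0.0343) and not without it (0.66 ± 0.19 SE, adjusted p = 0.0959). *Ctsb* (chr14:63122462-63145923, plus strand) was at 41.8 and 46.4 FPKM (Day 0), 55.2 and 53.5 (Day 1), 86.0 and 73.5 (Day 2), and 98.4 and 92.9 (Day 3), with the days apart, and rose by 1.10 ± 0.14 (SE, adjusted p = 0.000539). *Ctsd* (chr7:142375911-142388038, minus strand), the most abundant protease of the list, was at 103 and 105 FPKM (Day 0), 146 and 119 (Day 1), 147 and 182 (Day 2), and 194 and 233 (Day 3). Its replicate 1 libraries of Day 1 and Day 2 were nearly equal, those of Day 3 were the highest, and it rose by 1.02 ± 0.16 (SE, adjusted p = 0.00194).

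*Ctsa* (chr2:164832873-164841032, plus strand) encodes a carboxypeptidase that also protects the enzymes of *Glb1* and *Neu1* in a complex. It was at 21.7 and 23.4 FPKM (Day 0), 31.6 and 26.9 (Day 1), 35.8 and 37.4 (Day 2), and 66.1 and 65.9 (Day 3). The replicates lay close together, and the widest gap was that between Day 2 and Day 3. *Ctsa* rose by 1.51 ± 0.14 (SE, adjusted p = 0.000184), and its last step passed the threshold with the replicate block (adjusted p = 0.0450) but not without it (0.83 ± 0.14 SE, adjusted p = 0.0683). *Tpp1* (chr7:105744811-105752235, minus strand), a tripeptidyl peptidase whose loss causes late infantile Batten disease, was at 32.8 and 29.4 FPKM (Day 0), 45.7 and 35.4 (Day 1), 62.0 and 50.3 (Day 2), and 87.9 and 75.6 (Day 3). Replicate 1 was the higher on every day, and Day 3 was above all other libraries. *Tpp1* rose by 1.36 ± 0.18 (SE, adjusted p = 0.000748). *Ctsz* was the protease not called (0.71 ± 0.42 SE, adjusted p = 0.211). It ranged from 7.96 to 19.5 FPKM, and its replicates were 8.25 and 19.4 FPKM on Day 2.

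**Figure D4:**
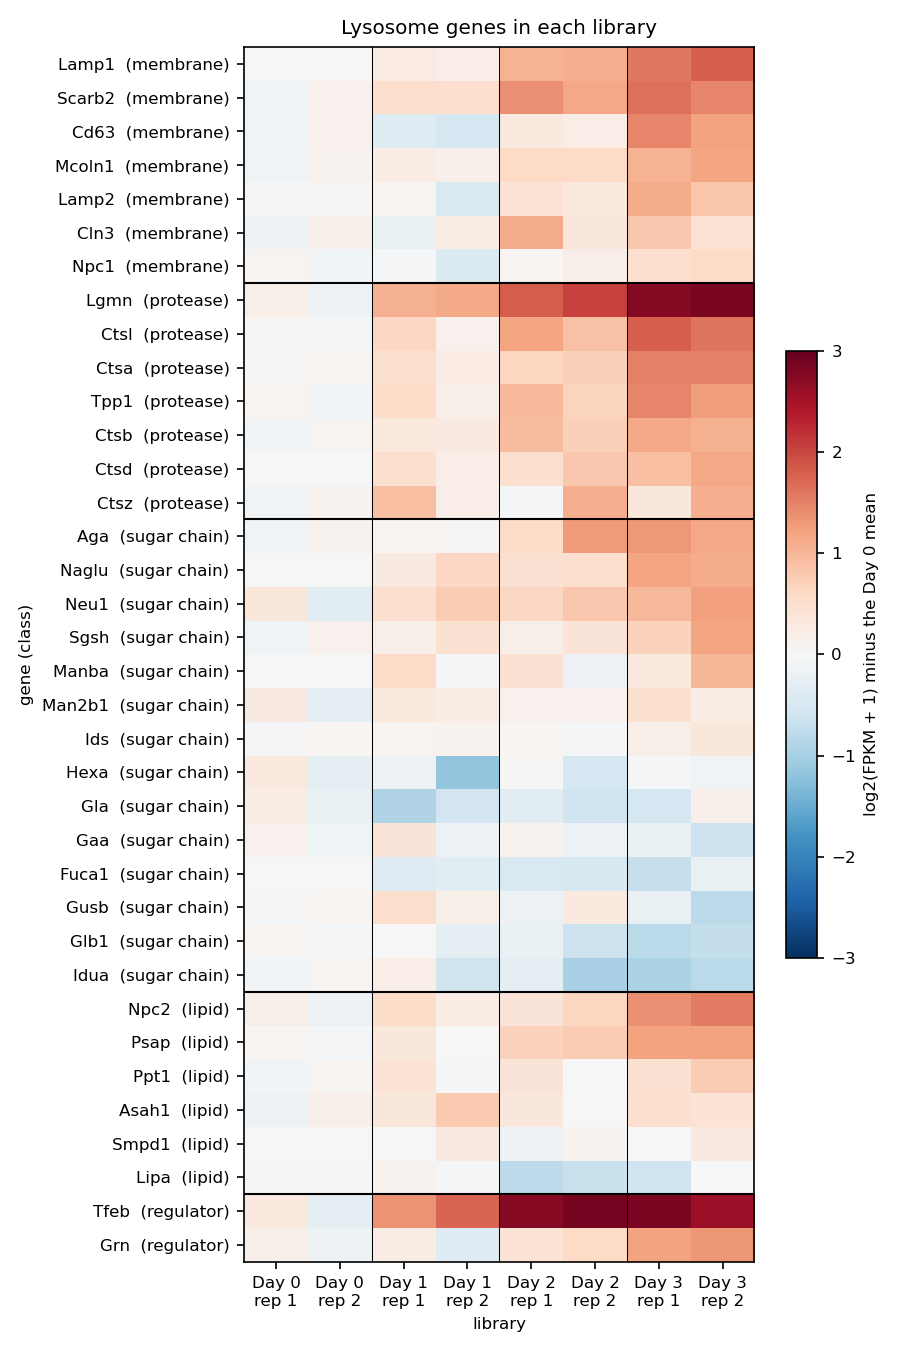
Each of the 36 lysosome genes (rows, grouped by class and ordered within it by the change to Day 3) in each of the 8 libraries (columns), coloured by log2(FPKM + 1) minus the mean of the 2 Day 0 libraries. In both Day 1 libraries 7 of 7 proteases and 3 of 7 membrane proteins (*Lamp1*, *Scarb2* and *Mcoln1*) are above the Day 0 mean, and *Tfeb* and *Lgmn* are the genes called in that step. *Glb1*, *Idua*, *Gaa*, *Gusb*, *Fuca1* and *Hexa* are below the Day 0 mean in both Day 3 libraries.

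On the scale of the deposited values the enzymes of sugar chain breakdown gave no common direction, with 7 of 14 log2 fold changes above 0. Against the median of all genes tested, -0.31, 9 of the 14 lay above. Of 14 genes, 4 rose. *Naglu* (chr11:101070012-101077672, plus strand) removes N-acetylglucosamine from heparan sulphate. It was at 3.42 and 3.29 FPKM (Day 0), 4.28 and 5.68 (Day 1), 4.97 and 5.15 (Day 2), and 8.88 and 8.43 (Day 3), with Day 3 apart from the other days, and rose by 1.15 ± 0.25 (SE, adjusted p = 0.00843). *Sgsh*, which removes sulphate groups from the same polymer, ranged from 3.32 to 9.66 FPKM and rose by 0.93 ± 0.29 (SE, adjusted p = 0.0340). *Aga* (chr8:53511727-53523421, plus strand) cuts sugar chains from asparagine. It was at 2.07 and 2.59 FPKM (Day 0), 2.53 and 2.42 (Day 1), 3.91 and 6.99 (Day 2), and 7.17 and 6.47 (Day 3), so that Day 0 overlapped Day 1 and Day 3 overlapped Day 2. It rose by 1.24 ± 0.32 (SE, adjusted p = 0.0159). *Neu1* (chr17:34931253-34935953, plus strand) is the lysosomal sialidase. It was at 6.94 and 4.02 FPKM (Day 0), 7.84 and 9.75 (Day 1), 8.74 and 10.1 (Day 2), and 11.4 and 13.8 (Day 3), with the lowest value in Day 0 replicate 2 and both Day 3 libraries above the rest, and rose by 1.10 ± 0.28 (SE, adjusted p = 0.0155). All 4 are low in FPKM and lost their calls when single libraries were left out. *Naglu* was not called without Day 0 replicate 2 (adjusted p = 0.0519), *Neu1* without Day 0 replicate 2 or Day 3 replicate 2 (adjusted p up to 0.106), *Aga* without any one of the Day 0 and Day 3 libraries (up to 0.0934), and *Sgsh* without Day 0 replicate 1, Day 0 replicate 2 or Day 3 replicate 2 (up to 0.174). *Sgsh* was also not called with no filter on low values (0.0512) or with only the days compared (0.0687).

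*Glb1*, the β-galactosidase that cuts galactose from gangliosides and from keratan sulphate, was the 1 gene of the list that fell. It was at 13.5 and 12.5 FPKM on Day 0 and at 7.01 and 7.54 on Day 3, and all libraries ranged from 7.01 to 13.5 FPKM. From Day 0 to Day 3 it fell (-0.76 ± 0.23 SE, adjusted p = 0.0328), which is -0.45 relative to the median of all genes. The call was lost with the values rescaled to the same sum, with median ratio scaling (-0.47, adjusted p = 0.137) and with quantile normalization, and also without any one of the Day 0 and Day 3 libraries (adjusted p up to 0.163). Within the complex named above, *Ctsa* and *Neu1* were called higher and *Glb1* lower on Day 3, on the scale of the deposited values. Of these calls only that of *Ctsa* held under all 17 alternative settings.

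The other 9 enzymes of this class were not called. *Idua*, which cuts iduronic acid from heparan and dermatan sulphate, was at -0.87 ± 0.36 (SE, adjusted p = 0.0907) with a range of 2.67 to 7.25 FPKM. The values of *Gusb* (β-glucuronidase), *Fuca1* (α-fucosidase) and *Gaa* (acid α-glucosidase, which degrades glycogen) were -0.50, -0.46 and -0.42, with adjusted p of 0.205, 0.0947 and 0.197 and ranges of 4.25 to 11.95, 14.5 to 24.5 and 18.6 to 38.2 FPKM. *Fuca1* was called lower without Day 3 replicate 2 (-0.70, adjusted p = 0.0339). *Gla*, the α-galactosidase of Fabry disease, and *Hexa*, the β-hexosaminidase subunit of Tay-Sachs disease, were at -0.19 and -0.10 (adjusted p = 0.706 and 0.849), and both values changed sign with median ratio scaling. *Gla* ranged from 1.61 to 4.73 FPKM and *Hexa* from 7.55 to 23.1. *Ids* (iduronate sulphatase), *Man2b1* (α-mannosidase) and *Manba* (β-mannosidase) were at 0.25, 0.35 and 0.64, with adjusted p of 0.176, 0.257 and 0.215. Of these 3, *Ids* was the most abundant (37.4 to 49.3 FPKM) and was called higher with median ratio scaling (0.56, adjusted p = 0.0166). *Man2b1* ranged from 9.04 to 15.9 FPKM and *Manba* from 2.25 to 6.25.

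Of the genes of lipid breakdown, the 2 that rose encode helpers and carriers rather than enzymes. *Psap* (chr10:60277627-60302597, plus strand) is the precursor of the saposins, small proteins that present sphingolipids to their hydrolases. It was at 218 and 198 FPKM (Day 0), 265 and 205 (Day 1), 338 and 350.5 (Day 2), and 484 and 479 (Day 3), the second most abundant of the 36. The Day 0 and Day 1 libraries overlapped and the later days were each higher, and it rose by 1.21 ± 0.15 (SE, adjusted p = 0.000552). *Npc2* (chr12:84754562-84773152, minus strand) passes cholesterol to the exporter NPC1. It was at 35.8 and 27.7 FPKM (Day 0), 47.0 and 37.2 (Day 1), 41.5 and 49.96 (Day 2), and 83.2 and 93.4 (Day 3). Days 0 to 2 lay close together and Day 3 was well above them, and *Npc2* rose by 1.46 ± 0.19 (SE, adjusted p = 0.000658). *Ppt1*, which removes fatty acids from proteins, ranged from 26.4 to 48.1 FPKM and lay at the threshold (0.61 ± 0.21 SE, adjusted p = 0.0507). It was called higher with the replicate block (adjusted p = 0.0474). The hydrolases *Asah1* (acid ceramidase), *Smpd1* (acid sphingomyelinase) and *Lipa* (acid lipase of cholesteryl esters) were not called, at 0.46, 0.14 and -0.29, with adjusted p of 0.104, 0.534 and 0.384. *Asah1* was called with median ratio scaling (0.77, adjusted p = 0.0187), and the value of *Lipa* turned to 0.01 there. They ranged from 28.4 to 54.5, 27.6 to 37.2 and 7.19 to 14.3 FPKM.

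Single steps gave few calls, and each middle day enters the steps on both sides of it, so the steps share libraries. From Day 0 to Day 1, 2 of the 36 genes rose (*Lgmn* and *Tfeb*) and 0 fell, where 5.04% of all genes tested were called higher and 7.56% lower. The count of 2 in 36 is near that share. At an unadjusted p under 0.05, 5 lysosome genes were higher and 1, *Cd63*, was lower in this step, against 10.7% and 16.1% of all genes. From Day 1 to Day 2, 5 rose (*Lamp1*, *Cd63*, *Scarb2*, *Lgmn* and *Tfeb*) and 0 fell, against 2.16% and 1.73% of all genes. Here 14 were higher and *Lipa* was lower (-0.76 ± 0.25 SE, adjusted p = 0.125) at an unadjusted p under 0.05, against 6.6% and 15.2% of all genes. With 1 library of Day 0, Day 1 or Day 2 left out, this count of 5 dropped to 0, or to 1 without Day 1 replicate 2. From Day 2 to Day 3, 1 rose (*Cd63*) and 0 fell, against 0.246% and 0.0491% of all genes, and at an unadjusted p under 0.05, 14 were higher and 0 lower, against 6.95% and 7.57%. With the replicate block the shares of all genes called higher and lower were 3.01% and 3.57% from Day 1 to Day 2, where 6 lysosome genes were higher, and 0.975% and 0.36% in the last step, where 2 were. *Cd63* was called in this step without Day 3 replicate 1 but not with any other library left out. The median log2 fold change of the 36 genes was 0.20, 0.30 and 0.38 in the 3 steps, and that of all genes was -0.07, -0.19 and -0.02.

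Replicate 2 was also set against replicate 1 with the day in the model, because the astrocyte markers differed between them. None of the 36 genes was called, while 0.68% of all genes were higher and 0.369% lower in replicate 2. At an unadjusted p under 0.05, 4 lysosome genes differed, *Hexa* (-0.57), *Gaa* (-0.37), *Ctsl* (-0.27) and *Tpp1* (-0.26), all lower in replicate 2, with adjusted p between 0.222 and 0.352. Among all genes 4.65% were higher and 7.2% lower in replicate 2 at that unadjusted p. A contribution of astrocytes to the change between days was not tested by this comparison.

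The remaining parts of the lysosome were taken from a list of 86 further genes in the table, of which 82 were tested. This list too was chosen with earlier results of these data known. From Day 0 to Day 3, 28 rose and 4 fell, against 12% higher and 26.3% lower among all genes, and the median was 0.35. With median ratio scaling these counts were 40 and 3, against 17.5% and 16.7%, and with the replicate block 30 and 7, against 13.2% and 29.1%. The block added *Ctsf* and *Tmem192* to the genes called higher (adjusted p = 0.0266 and 0.0222) and *Atp6v1g2*, *Pla2g15* and *Laptm4a* to those called lower (adjusted p = 0.0477, 0.0380 and 0.0370). Of 18 genes of the V-ATPase, 12 rose and 1 fell (2 with the replicate block). *Atp6v0b*, a subunit of the proton ring, went from a mean of 99.5 to 289.8 FPKM (1.53 ± 0.12 SE, adjusted p = 9.47e-05), and *Atp6ap1*, *Atp6v1c1*, *Atp6v1e1* and *Atp6v1g1* rose by 1.14, 1.09, 1.05 and 1.05. *Atp6v0e* fell (-0.81 ± 0.17 SE, adjusted p = 0.00682), after a mean of 230.3 FPKM on Day 1 against 124 on Day 0 and 70.6 on Day 3.

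Of 18 other hydrolases and activators tested, 4 rose (22.2%) and 2 fell (11.1%), where 12% of all genes rose and 26.3% fell. With the replicate block 5 rose and 3 fell, against 13.2% and 29.1% of all genes. *Ctsc*, the dipeptidyl peptidase cathepsin C, was at 1.58 and 2.97 FPKM (Day 0), 0.660 and 1.27 (Day 1), 0.996 and 1.82 (Day 2), and 31.2 and 57.0 (Day 3). It stayed low through Day 2 and was high in both Day 3 libraries, with a log2 fold change of 3.75 ± 0.40 (SE, adjusted p = 0.000296) against Day 0 and of 4.19 ± 0.40 (SE, adjusted p = 0.0232) in the last step alone. *Dpp7*, another dipeptidyl peptidase, rose by 1.59. *Gm2a*, the activator that presents ganglioside to the β-hexosaminidase, fell (-1.24 ± 0.26 SE, adjusted p = 0.00638), and so did *Scpep1*, a serine carboxypeptidase (-1.41 ± 0.22 SE, adjusted p = 0.00191). Both were called lower with median ratio scaling as well. Among 15 further membrane proteins and transporters 4 rose (26.7%) and 0 fell (5 and 1 with the replicate block), beside the same shares of all genes. *Abca2*, a lipid transporter of late endosomes and lysosomes that is abundant in OLs, was at 15.4 and 15.4 FPKM (Day 0), 27.2 and 34.1 (Day 1), 94.0 and 136 (Day 2), and 170.0 and 204 (Day 3), each day above the one before, and rose by 3.52 ± 0.20 (SE, adjusted p = 4.78e-05). *Ostm1*, a partner of the chloride transporter CLC-7, and *Ctns*, the cystine exporter, both rose by 1.18.

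Of 12 genes that tag and sort lysosomal enzymes 4 rose (33.3%) and 0 fell, where 12% of all genes rose and 26.3% fell. Their median was -0.21, or 0.10 relative to all genes. *Sort1* encodes sortilin, which also takes up progranulin, and rose by 1.72 ± 0.25 (SE, adjusted p = 0.00112), next to the 1.28 of *Grn*. *Gnptab*, a subunit of the enzyme that adds the mannose 6-phosphate tag, rose by 1.20 and *Cln8*, which helps enzymes out of the endoplasmic reticulum, by 1.14. Of 19 tested genes of nutrient sensing on the lysosome and of the family of *Tfeb*, 4 rose (21.1%) and 1 fell (5.3%). The shares of all genes were again 12% and 26.3%. *Mitf*, a relative of *Tfeb*, had its highest mean on Day 2 (15.8 FPKM), between 3.36 FPKM on Day 0 and 8.61 on Day 3, and rose by 1.09 ± 0.32 (SE, adjusted p = 0.0280). *Flcn* and *Fnip1*, whose products form a complex that controls the entry of this family into the nucleus, rose by 1.10 and 1.42. *Tsc2*, which restrains mTORC1, was the 1 that fell (-0.73), and it was not called with median ratio scaling.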

How the data were processed

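The authors processed reads of stranded mRNA libraries with OmicSoft ArrayStudio on mm10 (per the labels) and deposited FPKM per gene and library, without pooling. Aligner, gene model and strand setting are not given in the sources used here. Exons of 14 of the 36 genes overlap another gene (GENCODE), among them *Ctsl* with the antisense gene *Gm47123* over 1742 bases, *Sgsh* with *Card14* over 955, *Ctsd* with *Gm49369* on the same strand over 808 and *Ctsb* with *Fdft1* over 774, and their values are uncertain. Labels and methods name different culture media, with serum in that of the labels, and different RNA kits. Which of them holds for these libraries is not known.

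Days came from the labels. Log2(FPKM + 1) of all 8 libraries was fitted by day with limma 3.58.1 (R 4.3.3, eBayes with trend, two-sided), keeping genes that reached 1 FPKM in 2 or more libraries, with Benjamini-Hochberg adjustment over 12208 genes and a threshold of 0.05. This scale understates changes of low genes. The fit was tested on simulated data. The labels number the replicates but do not say that a number marks a shared isolation. Across genes, replicate differences were correlated for each of the 6 pairs of days (r between 0.164 and 0.285). Whether the numbers pair the libraries is therefore not settled. The main fit has no replicate block, and a fit with the block was run beside it and is given where it changes a call. Depth was read from low FPKM of genes with 1 transcript, of which 52.7% to 61.5% lay within 0.05 of a whole number of fragments, against 14.2% to 16.8% after random scaling.

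Members and lists were chosen with earlier results of these data known. Members got a value per library where called from Day 0 to Day 3 with an absolute log2 fold change of at least 1 or called in a step, as did *Lamp1*, *Lamp2*, *Tfeb*, *Grn* and *Mcoln1*. Further lysosomal genes were named where called with that size, except 1 that is not reported here. *Tsc2*, *Atp6v0e*, the 5 further lysosomal genes called with the replicate block alone and the values of *Glb1*, *Ctsz* and further lysosomal genes on single days were added after they were seen.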

Additional observations from a re-analysis of the deposited data

How the results depend on the processing

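Of the 20 lysosome genes called higher from Day 0 to Day 3, 15 passed the threshold under all 17 alternatives, and the count was 15 to 21 with 1 library left out in turn. The other 5 were *Npc1*, *Naglu*, *Sgsh*, *Neu1* and *Aga*. The count called lower, 1, was 0 with the same FPKM sum, median ratio scaling and quantile normalization, and 0 to 1 with a library left out, the 1 being *Fuca1* in place of *Glb1* without Day 3 replicate 2. From Day 0 to Day 1 the 2 called higher became 1 with only the days compared, 3 (with *Scarb2*) with FPKM of at least 10, the same FPKM sum and median ratio scaling, and stayed 2 with a library left out. From Day 1 to Day 2 the 5 became 2 with no filter, 8 with median ratio scaling, 0 with only the days compared, 0 with no trend, and 0 to 5 with a library left out. From Day 2 to Day 3 the 1 became 2 with the replicate block, 0 with a pseudocount of 0.1, with no filter, with only the days compared and with no trend, and 0 to 1 with a library left out. The cause of these shifts was not tested. Fits that leave out other days or a single library also rest on fewer libraries.

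With the replicate block, the counts higher were 21 from Day 0 to Day 3, 2 to Day 1, 6 from Day 1 to Day 2 and 2 in the last step, while 13.2%, 6.09%, 3.01% and 0.975% of all genes were called higher. It added *Ppt1* from Day 0 to Day 3 (adjusted p = 0.0474), *Ctsl* from Day 1 to Day 2 and *Ctsa* in the last step, and changed no other call of the 36 genes. Values that changed sign belonged to genes that were not called. *Hexa* was at 0.048 with the same FPKM sum, 0.20 with median ratio scaling and 0.16 with quantile normalization, and at -0.40 to 0.20 with a library left out. *Gla* was at 0.064 with median ratio scaling and 0.32 with quantile normalization, and at -0.53 to 0.15 with a library left out. *Lipa* was at 0.006 and 0.027 in those scalings, and at -0.60 to 0.023 with a library left out. Low depth limits *Gla*, *Manba*, *Aga*, *Idua*, *Naglu* and *Sgsh*, which stayed below 10 FPKM.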
